A study of Mus musculus with 3 samples.

Results

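The Ptbp family in the mouse holds the 3 polypyrimidine tract binding protein genes Ptbp1, Ptbp2 and Ptbp3, and RBFOX2 crosslink clusters were collected here for all of them. A cluster was assigned to a gene when it lay on the gene's strand with its midpoint inside the GENCODE M21 span. By this rule 59 clusters of 87021 belonged to the family, and the 3 genes were among 10744 with at least 1 cluster. Ptbp3 held 29 of these clusters, Ptbp1 held 17 and Ptbp2 held 13. Attention was given to the 34-nt exon 10 of Ptbp2 and to the homologous exons of Ptbp1 and Ptbp3.

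The study mapped RBFOX2 on RNA in primary hepatocytes of C57BL6/J mice on a control diet by eiCLIP, in which protein is crosslinked to RNA with ultraviolet light (150 mJ/cm2), RBFOX2 is immunoprecipitated with an antibody listed as RBM9, an older name of the protein, and the end of each cDNA marks the crosslinked base. There was 1 group of 3 libraries, with no knockout and no other diet. The labels give 3 livers, whereas the study's methods describe independent hepatocyte cultures each made from a pair of mice. The clusters were called by the authors on the pooled libraries, so each value has 1 count and no spread between replicates, and no test between groups could be made. Matched input was not analysed here, and no RNA abundance was used, so a high count cannot be told apart from an abundant transcript. Counts of the list ran from 10 to 186971 with a median of 17, and the 10% highest clusters had 39 or more. Of 55536 annotated genes 19.3% had a cluster. All 6 hepatocyte marker genes did, with summed counts from 11 to 8110, whereas 1 of 3 endothelial, 1 of 3 Kupffer cell, 0 of 3 stellate and 0 of 3 cholangiocyte markers had any, with at most 15 counts in a gene. Of 3 neuronal markers only Rbfox3, a paralog of Rbfox2, had clusters, with 52 counts.

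PTB proteins bind pyrimidine-rich RNA and most often repress the exons beside it. Ptbp1 is the broadly expressed member, Ptbp2 the member that replaces it in developing neurons, and Ptbp3, also called ROD1, was first studied in blood cells. In Ptbp1 and Ptbp2 the short exon studied here is a known switch: PTB protein promotes its skipping, which shifts the reading frame and sends the transcript to nonsense-mediated decay (NMD). RBFOX2 binds GCATG, and in many genes it promotes inclusion of an exon when it binds downstream of it and skipping when it binds upstream.

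The 34-nt exons are shown because the highest cluster of Ptbp1 and that of Ptbp2 lay just downstream of them. They are given 5′ to 3′ on the transcribed strand in GRCm38, with bases inside a cluster in capitals. The Ptbp1 exon lies on the plus strand at chr10:79862014-79862047, the Ptbp2 exon on the minus strand at chr3:119724612-119724645 and the Ptbp3 exon on the minus strand at chr4:59485339-59485372.
Ptbp1 34-nt exon: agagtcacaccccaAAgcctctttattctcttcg
Ptbp2 34-nt exon: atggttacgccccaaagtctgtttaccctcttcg
Ptbp3 34-nt exon: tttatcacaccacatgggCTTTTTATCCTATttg

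The exons of Ptbp1 and Ptbp2 were identical at 26 of 34 positions (76.5%), those of Ptbp1 and Ptbp3 at 22 (64.7%) and those of Ptbp2 and Ptbp3 at 21 (61.8%). All 3 shared 19 positions. The exon is coding in each gene, but its annotation differed between them. For Ptbp1, 3 protein-coding transcripts contained it and 2 NMD transcripts skipped it. Ptbp2 had the same numbers, 3 containing and 2 skipping. For Ptbp3, 7 protein-coding transcripts and 1 NMD transcript contained it, and 0 annotated transcripts skipped it. The longest stretch shared by the reference mature transcripts was 14 nt for Ptbp1 and Ptbp2, 20 nt for Ptbp1 and Ptbp3 and 21 nt for Ptbp2 and Ptbp3. The authors kept reads of at least 18 nt, so within these transcripts only reads close to this minimum could match a pair of members exactly. Introns, where most clusters of Ptbp1 and Ptbp2 lay, and matches with mismatches were not compared.

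Ptbp3 carried the most counts of the family and Ptbp1 the fewest. The summed cDNA count was 1107 for Ptbp3 (exact Poisson 95% interval 1043 to 1174), 473 for Ptbp2 (431 to 518) and 339 for Ptbp1 (304 to 377). The 3 intervals, which cover counting error only and no spread between libraries, did not overlap. Among the 10744 genes with a cluster, whose median sum was 53.0, Ptbp3 ranked 307, Ptbp2 844 and Ptbp1 1256. Ptbp1 moved from last to first when the length of the gene was taken into account, and Ptbp3 stayed above Ptbp2. Ptbp1, only 10345 nt long, had 32.8 counts per kb (rank 861), Ptbp3 had 14.3 over 77497 nt (rank 1544) and Ptbp2 had 7.20 over 65725 nt (rank 2602).

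**Figure D1:**
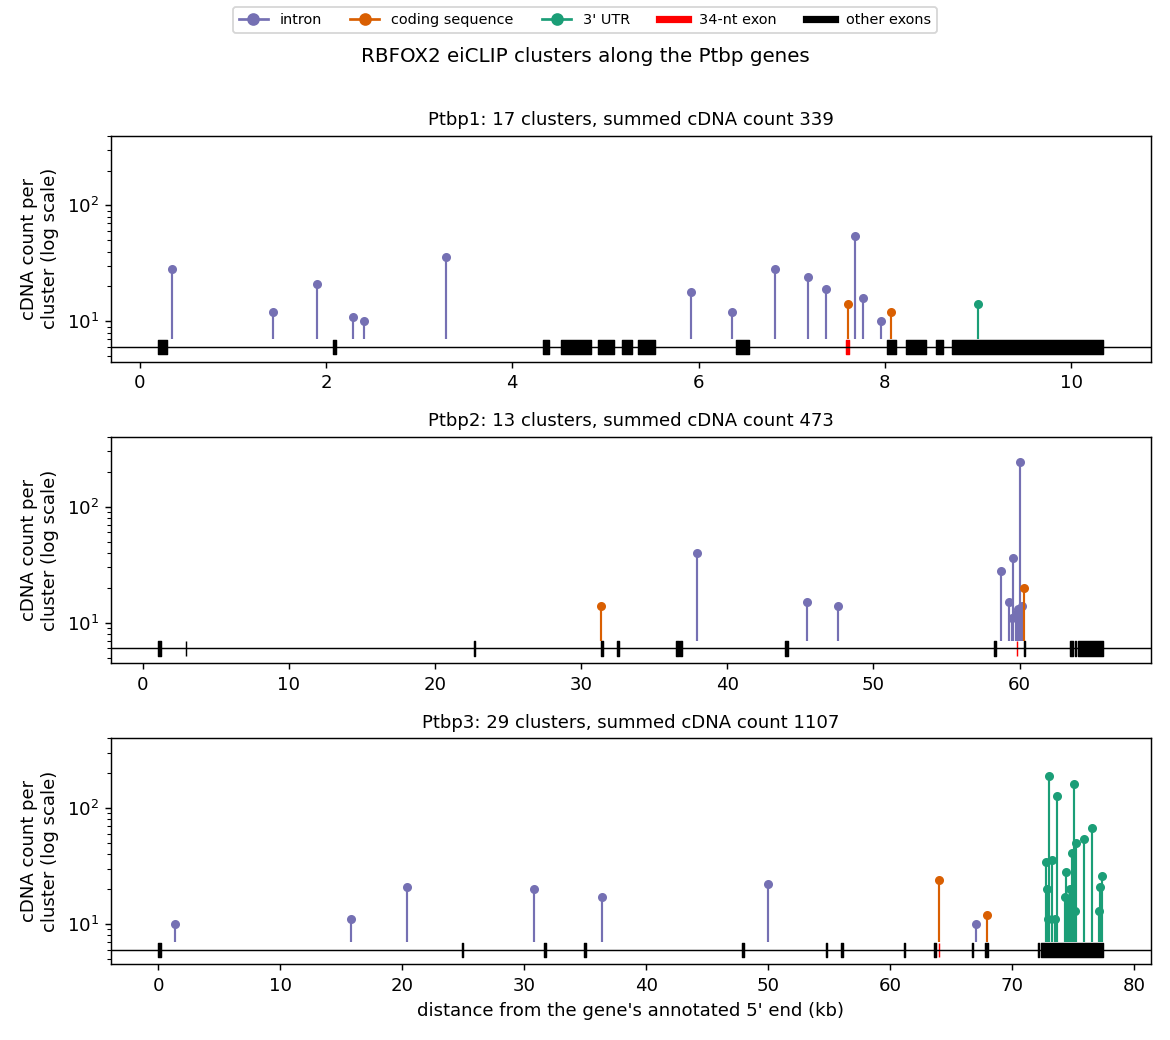
Clusters along Ptbp1, Ptbp2 and Ptbp3 (17, 13 and 29 clusters). The x axis is the distance from the annotated 5′ end of each gene in kb, and the y axis is the cDNA count per cluster on a log scale. Each stem is 1 cluster coloured by annotation, and boxes are exons of 1 reference transcript with the 34-nt exon in red. Clusters are spread along Ptbp1, concentrated around the 34-nt exon in Ptbp2 and concentrated in the 3′ UTR of Ptbp3.

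The counts within a gene were shared most unevenly in Ptbp2. In Ptbp1 they ran from 10 to 54 with a median of 16.0, and the highest cluster held 15.9% of the sum, close to the median of 15.0% over the 2065 genes with at least 10 clusters. In Ptbp2 they ran from 11 to 241 with a median of 15.0. Its highest cluster alone held 51.0% of the sum, rank 31 of those 2065 genes. This rank is not adjusted for the number of clusters. A high share is easier to reach with few clusters, and Ptbp2 had 13, near the minimum of 10. In Ptbp3 the counts ran from 10 to 191 with a median of 21.0, and the highest cluster held 17.3% of the sum (rank 769). Of the 10.2% of all clusters with a count of 39 or more, 1 lay in Ptbp1, 2 in Ptbp2 and 7 in Ptbp3.

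The annotation separated Ptbp3 from its paralogs. In Ptbp1, 14 of 17 clusters were intronic (82.4%, Wilson 95% interval 59.0 to 93.8), with 2 in coding sequence and 1 in the 3′ UTR. In Ptbp2, 11 of 13 were intronic (84.6%, 57.8 to 95.7), with 2 in coding sequence. In Ptbp3, 7 of 29 were intronic (24.1%, 12.2 to 42.1), 2 were coding and 20 were in the 3′ UTR (69.0%, 50.8 to 82.7). Over all clusters of the list 58.0% were intronic and 11.3% lay in a 3′ UTR. By count, introns held 88.2% in Ptbp1, 92.8% in Ptbp2 and 10% in Ptbp3, against 43.9% over the list. When exons of retained-intron transcripts were taken as exon, the intronic share of clusters was 58.8% in Ptbp1, 69.2% in Ptbp2 and 24.1% in Ptbp3, so the order of Ptbp3 against the others did not change.

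**Figure D2:**
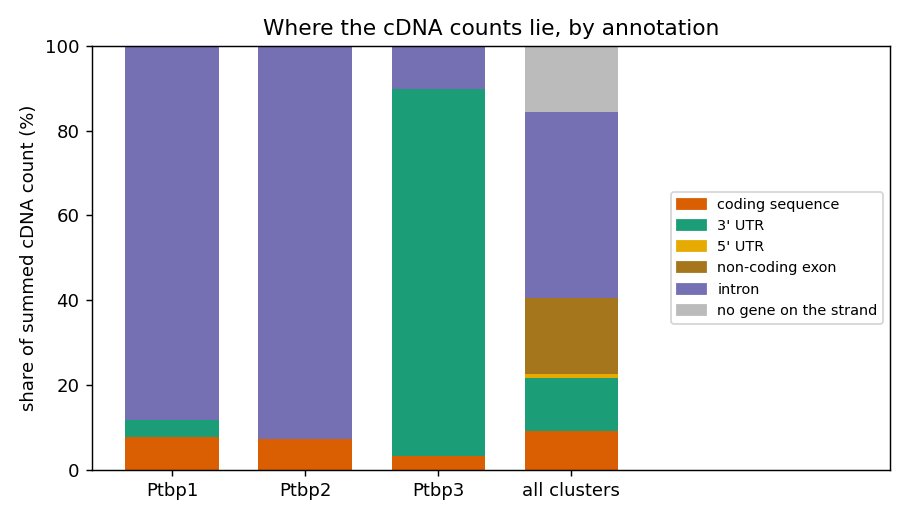
Share of the summed cDNA count, in percent, by annotation of the cluster midpoint for Ptbp1, Ptbp2, Ptbp3 and all 87021 clusters. Introns take 88.2% in Ptbp1 and 92.8% in Ptbp2, and the 3′ UTR takes 86.7% in Ptbp3.

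Most counts of Ptbp2 lay in the introns on either side of exon 10. These introns and the exon cover 2.86% of the gene and held 8 of its 13 clusters and 370 of its 473 counts (78.2%). The 1420-nt intron upstream held 5 clusters with 102 counts (71.8 per kb) and the 425-nt intron downstream held 3 with 268 counts (631 per kb). Exon 10 itself held no cluster of the deposited list, which starts at a count of 10.

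The highest cluster of Ptbp2 lay downstream of exon 10. It covered intron positions 83 to 223, counted from the first base after the exon (chr3:119724389-119724529, 141 nt), with 241 counts, above 99.4% of all clusters. A cluster of 13 counts at positions 54 to 59 preceded it and a cluster of 14 counts at positions 282 to 285 followed it. Together these gave 268 counts within 300 nt of exon 10 (237 to 302). A further cluster of 20 counts crossed from the end of this intron into exon 11, a 93-nt coding exon, and was counted as coding.

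Upstream of exon 10 the counts were lower and more scattered. Clusters of 12 and 36 counts lay 57 and 242 nt upstream, giving 48 counts within 300 nt (35.4 to 63.6). Others of 11, 15 and 28 counts lay 317, 553 and 1104 nt upstream, the last of them 280 nt downstream of exon 9. The interval of the downstream sum lay wholly above that of the upstream sum, in counting error only. The remaining 4 clusters of Ptbp2, with 14, 40, 15 and 14 counts in 5′ to 3′ order, lay farther upstream, from exon 4 to the intron before exon 9. The 40-count cluster, 136 nt wide at chr3:119746457-119746592, was the second highest of the gene, and the 36-count cluster at chr3:119724888-119724914 was the third.

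Ptbp1 had clusters in the same arrangement with smaller counts. Both introns and the 34-nt exon held 7 of its 17 clusters and 165 of its 339 counts (48.7%) in 14.3% of the gene. The 1044-nt intron upstream had 3 clusters with 71 counts (68.0 per kb) and the 401-nt intron downstream had 3 with 80 counts (200 per kb). Upstream, clusters of 28, 24 and 19 counts lay 751, 395 and 214 nt from the exon, and only the last of these was within 300 nt (19 counts, 11.4 to 29.7). Inside the exon a 2-nt cluster had 14 counts (7.65 to 23.5). Downstream, clusters of 54 and 16 counts gave 70 within 300 nt (54.6 to 88.4), and another, of 10 counts, lay 64 nt before the next exon.

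The Ptbp1 cluster of 54 counts, at intron positions 53 to 72 (chr10:79862100-79862119), was the highest of the gene, above 94.6% of all clusters. The first downstream cluster of Ptbp2 began at position 54, next to that start, in an intron of like length. The next Ptbp1 cluster, at positions 139 to 144, ran into the first of 3 GCATG elements at positions 142 to 146, 158 to 162 and 187 to 191. The first 210 nt of this intron, chr10:79862048-79862257 on the plus strand, are shown because they hold both clusters and these elements, with GCATG in capitals.
Ptbp1 downstream intron: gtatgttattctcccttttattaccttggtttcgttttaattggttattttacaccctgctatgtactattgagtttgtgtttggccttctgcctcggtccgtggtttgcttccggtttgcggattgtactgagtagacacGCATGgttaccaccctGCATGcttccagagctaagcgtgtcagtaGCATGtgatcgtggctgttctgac

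The 54-count cluster itself holds no GCATG. For Ptbp2 only the last 201 nt of the 425-nt downstream intron could be read, from annotated transcripts (chr3:119724187-119724387, minus strand). The 241-count cluster ends 1 base before this stretch, so its sequence is not given. The stretch is shown because it completes the intron after that cluster. Capitals mark bases inside the 14-count cluster and, at the end, the last intron bases of the cluster that crosses into exon 11.
Ptbp2 downstream intron, last 201 nt: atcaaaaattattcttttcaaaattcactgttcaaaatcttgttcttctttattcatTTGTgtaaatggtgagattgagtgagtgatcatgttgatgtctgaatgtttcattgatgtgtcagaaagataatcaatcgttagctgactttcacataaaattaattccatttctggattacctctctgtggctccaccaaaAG

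Ptbp3 differed from both paralogs beside its exon. No cluster of the list lay in the 234-nt intron upstream or in the 2701-nt intron downstream. Inside the exon a 13-nt cluster at chr4:59485342-59485354 had 24 counts (15.4 to 35.7), on the pyrimidine-rich bases in capitals in the exon sequence. The exon and both introns thus held 24 of 1107 counts (2.17%) in 3.83% of the gene. Since clusters under 10 counts are not in the list, weaker crosslinking beside this exon was not detectable.

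**Figure D3:**
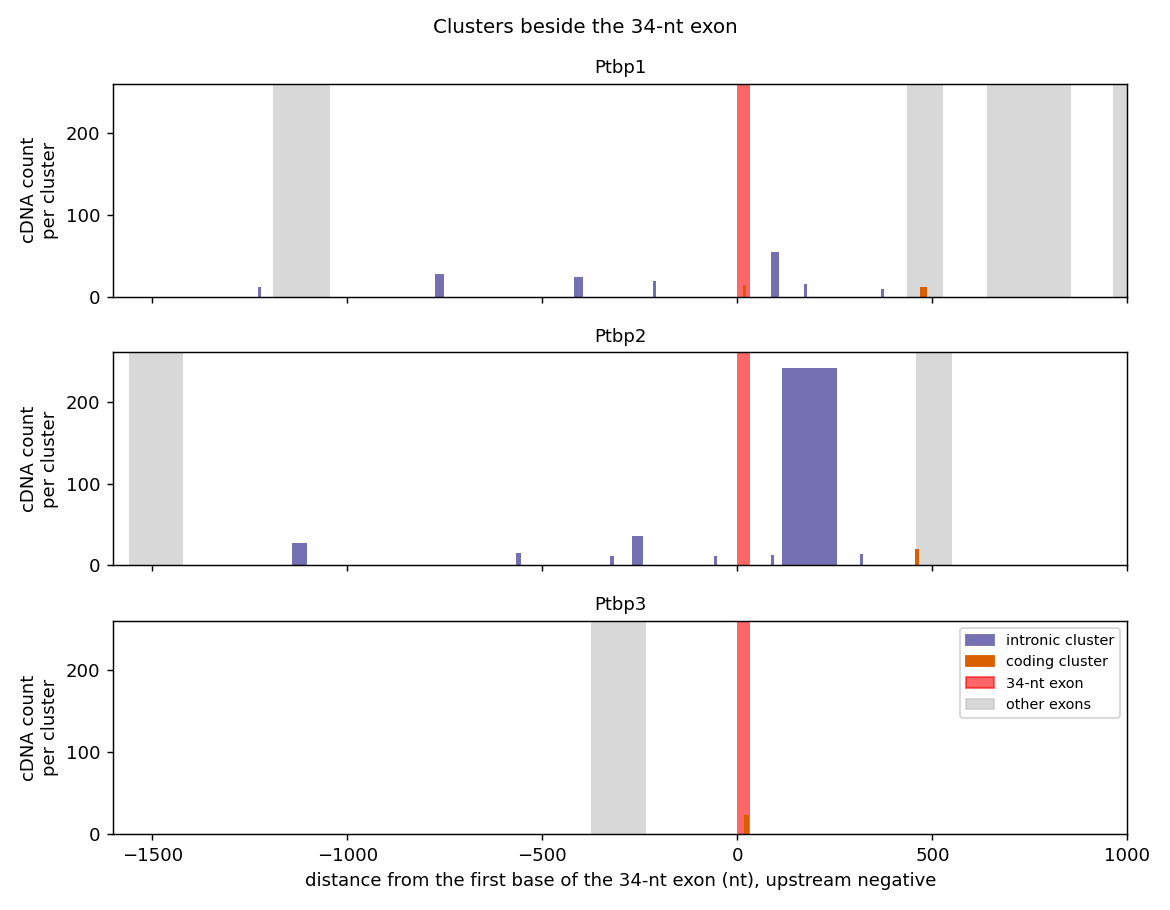
Clusters beside the 34-nt exon of Ptbp1, Ptbp2 and Ptbp3. The x axis is the distance in nt from the first base of the exon, upstream negative, and the y axis is the cDNA count per cluster on the same linear scale in each panel. Bars span the cluster, with those under 8 nt drawn 8 nt wide, red marks the exon and grey the other exons. The 241-count cluster of Ptbp2 and the 54-count cluster of Ptbp1 stand just downstream of the exon, and Ptbp3 has only the 24-count cluster inside it.

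Few annotated exons had a cluster beside them, with exons of genes without any cluster included. Of 174743 internal coding exons, 2.77% had a cluster within 300 nt upstream and 3.18% within 300 nt downstream. Among the 2937 of these exons that are 30 to 40 nt long the shares were 4.02% upstream and 4.56% downstream, and 1.84% had a cluster inside. A cluster on both sides, as in Ptbp1 and Ptbp2, was found for 28 of the 2937 exons (0.953%), or 1.78% of the 1570 in genes with any cluster. By downstream count the Ptbp2 exon ranked 47 among all internal coding exons and 3 among the short ones, and the Ptbp1 exon 302 and 11. By upstream count the Ptbp2 exon ranked 443 and 15, and the Ptbp1 exon 2100 and 64. These ranks describe the pooled list and are not adjusted for transcript level.

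The remaining Ptbp1 clusters lay 5′ of this region, apart from 2 in later exons. The second highest, with 36 counts, was 118 nt wide at chr10:79857657-79857774, in an intron. Clusters of 28 counts followed, one of them the 751-nt-upstream cluster already given (chr10:79861239-79861262) and the other at chr10:79854677-79854864, which overlaps exon 1 with its midpoint in the intron. Others of 10 to 21 counts lay in introns further upstream, including 12 counts 36 nt upstream of exon 8. A coding cluster of 12 counts lay in the 93-nt exon after the 34-nt exon. The exon of the same length in Ptbp2 is the one whose start the 20-count cluster crossed. The only 3′ UTR cluster of Ptbp1 had 14 counts.

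The 3′ UTR set Ptbp3 apart. It spans 5018 nt in the longest annotation (chr4:59471868-59476885) and held 20 clusters with 960 counts (900 to 1023), or 86.7% of the gene's sum. This share ranked 35 among the 2065 genes with at least 10 clusters, whose median was 7.07%. The density was 191 counts per kb in the 3′ UTR and 2.03 per kb in the rest of the gene, which held 9 clusters and 147 counts. By comparison the 1497-nt 3′ UTR of Ptbp1 had 1 cluster and 9.35 counts per kb, and the 1589-nt 3′ UTR of Ptbp2 had no cluster. Introns are removed from mature RNA and 3′ UTRs are not, so densities in the 2 classes are not on an equal footing within a gene.

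A few broad clusters carried most of the Ptbp3 3′ UTR counts. The highest had 191 counts at 3′ UTR positions 542 to 623, counted from the first base after the coding sequence (chr4:59476263-59476344), above 99.2% of all clusters. The next had 163 counts at positions 2586 to 2685 (chr4:59474201-59474300), and the third had 128 at positions 1157 to 1264 (chr4:59475622-59475729). These 3 were between 82 and 108 nt wide. Further clusters of 68, 54 and 50 counts lay at positions 4068 to 4158, 3444 to 3481 and 2816 to 2820. The other 14 had 11 to 41 counts.

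The clusters began at position 287 of the 3′ UTR and continued beyond the shorter annotated ends, with gaps between them. Protein-coding transcripts of Ptbp3 end at several places within it, and Ptbp3-202 stops at position 1627. Up to there 7 clusters with 431 counts were found, and 13 with 529 counts lay beyond it, in RNA that only the longer annotated transcripts Ptbp3-201 and Ptbp3-212 contain. No cluster lay from position 1 to 238. The density was 523 counts per kb from position 239 to 303, where 1 cluster lay, 308 from 304 to 1175, 283 from 1176 to 1627 157 from 1628 to 4838 and 144 from 4839 to 5018.

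**Figure D4:**
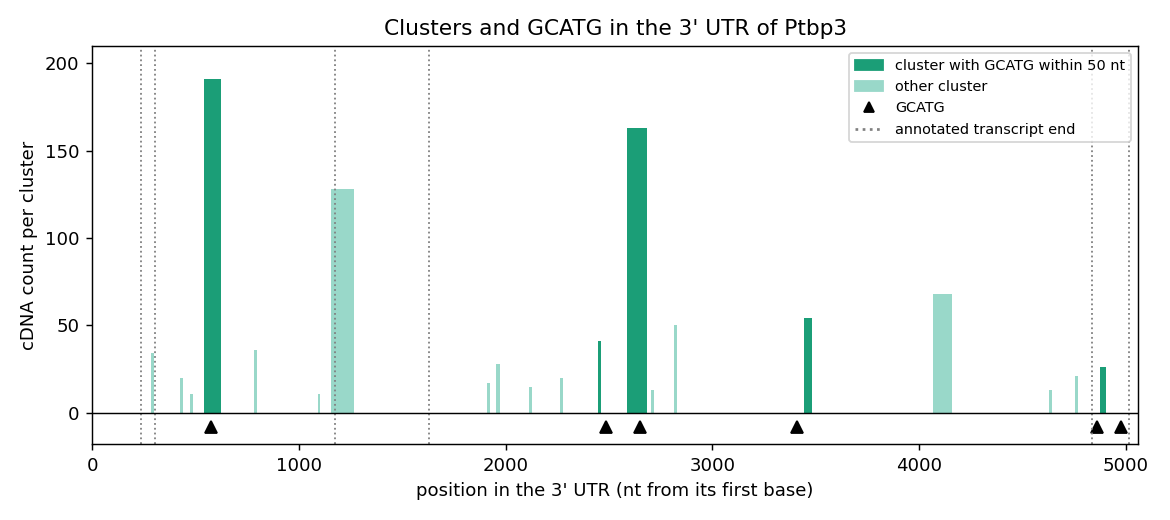
Clusters in the 3′ UTR of Ptbp3. The x axis is the position in nt from the first base of the 3′ UTR and the y axis the cDNA count per cluster, with bars under 14 nt drawn 14 nt wide. Dark bars are clusters with GCATG inside or within 50 nt, triangles are the 6 GCATG elements and dotted lines are annotated transcript ends. The clusters of 191 and 163 counts overlap a GCATG and the 128-count cluster has none.

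GCATG elements were next located on the transcribed strand. The 3′ UTR of Ptbp3 held 6, of which 5 lay within 50 nt of a cluster, while 44.9% of the 3′ UTR was that close to one. The elements at positions 574 and 2647 lay inside the 191-count and 163-count clusters, and those at 2483, 3409 and 4859 lay 32, 30 and 11 nt from clusters of 41, 54 and 26 counts. The sixth, at 4977, was 71 nt from the 26-count cluster. The 5 elements near a cluster are shown with 30 nt each, named by position, minus strand, with GCATG in capitals. They lie in this order at chr4:59476296-59476325, chr4:59474387-59474416, chr4:59474223-59474252, chr4:59473461-59473490 and chr4:59472011-59472040.
Ptbp3 574: ggtttataaacgtGCATGctttctttcaga
Ptbp3 2483: ttgttttaaaagaGCATGtttgaagccatc
Ptbp3 2647: tatttttattttaGCATGcagtattcagta
Ptbp3 3409: ttagaaccaaaaaGCATGactatgattgga
Ptbp3 4859: ctaactgtgtagtGCATGgttaattcaagc

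The 5 clusters of the Ptbp3 3′ UTR with GCATG in the window held 475 counts (median 54.0) and the 15 without it held 485 (median 20). Wider clusters were searched over a longer window, and these medians are not adjusted for width. Over all 3′ UTR clusters of the list with sequence, 21.7% had GCATG in this window, compared with 5 of 20 in Ptbp3. Across the family 33 of 59 clusters had sequence on both sides and 8 of them held GCATG (24.2%, Wilson 12.8 to 41.0), against 20.1% of all such clusters. The family share was therefore not distinguishable from the list at this number of clusters. By gene it was 3 of 10 in Ptbp1, 0 of 3 in Ptbp2 and 5 of 20 in Ptbp3. In Ptbp1 the 3 were the 28-count and 24-count clusters upstream of the 34-nt exon and the 16-count cluster downstream of it, and in each an element overlapped the cluster, starting 17, 3 and 3 nt from its 5′ end.

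Sequence could be read for 59.7% of the Ptbp1 span, 22.3% of Ptbp2 and 10% of Ptbp3. Ptbp1 had 13 elements in its share, 5 of them within 50 nt of a cluster, where 23.8% of its readable sequence lay. Ptbp2 had 15, none closer than 228 nt to a cluster, and only 3.68% of its readable sequence was within 50 nt of one, so the elements could not be compared with most of its clusters. A heptamer like the adaptors of the method stood 6 to 17 nt downstream of 1.59% of all sense clusters with sequence and of 0 of 36 family clusters.

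Partners and targets of PTB proteins were looked up for context. Of 5 genes for proteins that bind PTB or share its targets, 4 had clusters, where 19.3% of all annotated genes did, expressed in the liver or not. Among them Matr3, a nuclear matrix protein, had 17 with 321 counts, Hnrnpl had 11 with 262, its paralog Hnrnpll had 6 with 110 and Raver1, a co-repressor of PTB, had 2 with 52. Raver2 had none. Each of these sums was below that of Ptbp1, but the Poisson interval of Matr3 (287 to 358) overlapped that of Ptbp1 (304 to 377). Of 8 genes with exons known to be controlled by PTB proteins, 5 had clusters, against the same 19.3% of all annotated genes. Actn1, an alpha-actinin, had 93 with 2808 counts, Fgfr2 had 57 with 1563, the tropomyosin gene Tpm1 had 54 with 1442, the kinase gene Src had 22 with 402 and the pyruvate kinase gene Pkm had 15 with 353. Fas and Dlg4 had none in the list. All these sums are over whole genes and are not adjusted for gene length or transcript level. Whether the clusters lay near the PTB-controlled exons was not tested.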

How the data were processed

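RBFOX2 eiCLIP was analysed in 3 libraries of primary mouse hepatocytes, deposited as 1 pooled list of crosslink clusters. The authors trimmed adaptors with cutadapt, aligned reads to GRCm38 with STAR 2.4.2a, removed PCR duplicates by random barcode, removed ribosomal RNA and called clusters with Paraclu on pooled data; CASAVA 1.8.4 is also in the submitters' processing notes. The deposited counts per cluster are taken as unnormalised cDNA counts; the unit of this column is read from its whole values and the methods. No cluster has a count below 10. The sum of counts was 2850863 and the median width 18.0 nt.

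Clusters were placed on GENCODE M21 (methods: VM20) by midpoint, with coding sequence taking precedence over UTRs, these over exons of non-coding transcripts, and introns last. GRCm38 sequence came from 141767 GENCODE transcripts, with 0 conflicting bases, so most introns were not read. Windows for GCATG were the cluster with 50 nt on each side, and beside exons 300 nt of intron. Python 3.11.15, numpy 2.4.6, scipy 1.17.1 and matplotlib 3.10.9 were used. The placement was tested on made-up clusters. Intervals at 95% are exact Poisson for sums and Wilson for shares, and cover counting error only. The text names the 3 members, every cluster within 1000 nt of the 34-nt exons, the 3 highest clusters of each gene and the members of the gene lists, of which 1 is not reported here. Members and lists were chosen with earlier results of these data known. Alternatives covered cluster minimum, merging, annotation, window and motif.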

Additional observations from a re-analysis of the deposited data

Results flagged for a closer look

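The strand opposite the Ptbp genes was not part of the comparisons, and it held 2 clusters. One, with 12 counts, was 6 nt wide and lay opposite Ptbp1 (chr10:79859648-79859653, minus strand). An adaptor-like heptamer stood 6 to 17 nt downstream of it. The other, with 14 counts and also 6 nt wide, lay opposite Ptbp3 (chr4:59515027-59515032, plus strand), and its sequence could not be read. No gene is annotated on that strand at either place. No control libraries were analysed here, and the counts were set against none.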

How the results depend on the processing

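Of 56 alternatives, 35 stayed close to the values reported (numbers of clusters and ranks within 1.5 times, sums and shares within their own 95% interval) and 21 moved. With a count at or above the list's median, 8 clusters were left in Ptbp1 and 5 in Ptbp2. With the 10% highest clusters, 1, 2 and 7 were left in Ptbp1, Ptbp2 and Ptbp3, with sums of 54, 281 and 695. Merging clusters within 200 nt left 11, 7 and 15. Ranked by number of clusters Ptbp2 was at 1363, and by counts per kb Ptbp2 was at 2602 and Ptbp3 at 1544. Retained-intron exons gave an intronic share of 58.8% in Ptbp1, and weighting by count gave 10% in Ptbp3. The Ptbp1 upstream count was 43 within 500 nt and 71 within 1000 nt, and the Ptbp2 upstream count was 74 within 1000 nt. The motif share was 17.6% with 20 nt and 38.7% with 100 nt on each side, against 24.2% with 50 nt, 12.1% for TGCATG and 12.1% for CATGC. For clusters wider than 6 nt, a setting chosen after seeing the data, it was 33.3%. The share over all clusters is given only for GCATG with 50 nt on each side (20.1%). The family shares at the other settings therefore have no background and cannot be read as high or low. The downstream counts of Ptbp1 and Ptbp2 stayed close to the values reported in each window tried, and Ptbp3 had no cluster beside its exon in any of them. Windows were cut at the end of the intron. In the downstream introns of Ptbp1 (401 nt) and Ptbp2 (425 nt) the windows of 500 and 1000 nt were therefore the same whole intron. The 234-nt upstream intron of Ptbp3 was taken whole at every window. These settings had little room to change the values, and they are among the alternatives that stayed close. Libraries were pooled in the deposited list, so none could be left out. No paired analysis was possible because the 3 libraries form 1 group and were pooled. Depth limits the smaller clusters most, since a cluster of 10 counts sits at the minimum of the list.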
